A study of Mus musculus with 8 samples.

Results

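The 60 genes described here were raised by interleukin-13 (IL-13) in RAW264.7 cells. They did not fall by 0.5 or more on the log2 scale when all-trans retinoic acid (ATRA) was given with IL-13. They were chosen from Agilent one-colour array signals, each scaled by subtracting the log2 of its array's 75th percentile, with 1 probe per gene. A gene was a member if its probe was well above background on both IL-13 arrays, if its IL-13 minus untreated difference was at least 1 on the log2 scale at 12 h and at 24 h, and if its IL-13 with ATRA minus IL-13 difference was above -0.5 at both times. Of 27339 genes with a probe, 14121 were well above background on both IL-13 arrays, 192 of these (1.36%) met the IL-13 limit and 60 of the 192 also met the ATRA limit. The remaining 132 fell below it at 1 or both times. Because the IL-13, untreated and combined-treatment arrays chose the members, the differences between them are described here without a test.

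RAW264.7 is a mouse macrophage-like line, grown here in DMEM with heat-inactivated serum. Total RNA was measured on 8 arrays, 1 at 12 h and 1 at 24 h for each of 4 treatments: IL-13 together with ATRA, IL-13 alone, ATRA alone, and no treatment. The labels call the cells given both agents M2 polarization suppressed, the IL-13 cells M2 macrophages, and the ATRA and untreated cells unpolarized. They name 1 cell line and no genetic change, give no doses, and do not state whether the cultures were grown apart, so the p-values cover the spread of these arrays and no more. No treatment was repeated at 1 time, and the replicate spread is how far 12 h and 24 h differed in their treatment effects. Slide 1 carried the 12 h arrays and slide 2 the 24 h arrays, which means that time cannot be told apart from slide.

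IL-13 binds a receptor chain shared with IL-4 and acts through JAK kinases and the transcription factor STAT6, which drives the state called alternative or M2 activation. ATRA enters cells, binds nuclear retinoic acid receptors and changes transcription of the genes near which these receptors sit. Alternatively activated macrophages are known for arginine breakdown by Arg1, for chemokines that draw eosinophils and monocytes, and for growth factors and matrix enzymes used in tissue repair.

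The 75th percentile of the signal lay between 448 and 739 over the 8 arrays, with the lowest on the IL-13 array at 12 h and the highest on the IL-13 array at 24 h. Between 54.1% and 61.4% of probes were well above background, and 0 probes were saturated. Of 9 macrophage markers, 8 were well above background on all 8 arrays. Epithelial (4 of 4) and mast cell (3 of 3) markers were well above background on 0 arrays, as were 3 of 4 fibroblast markers. Some probes for lymphocyte and neutrophil genes did give signal: Cd3e, Cd4 and Lck among 5 T cell markers and S100a8 among the neutrophil markers were well above background on all 8 arrays. The linear signals of the marker lists, summed per array, ranged from 164 to 231 for T cells, from 26.0 to 113 for B cells and from 118 to 420 for neutrophils, against 269951 to 372584 for macrophages. Their part in the results was not tested. In bulk RNA, fewer cells that express a gene and less RNA per cell cannot be told apart.

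By the rule's own measure, the IL-13 minus untreated difference, averaged over both times, ran from 1.01 for Traf5 to 9.25 for Cish, with a median of 1.76. For the 6 members whose probes were well above background on 0 untreated arrays (Cish, Arg1, Gstt4, Hvcn1, AK084265 and Tlr8) this difference is no exact size, and a bound is given below. For 7 more (Hbegf, Ccl7, Prss46, AK040902, Myh3, Bcl6b and Arg2) the probe was well above background on 1 untreated array. Differences of these 7 from untreated cells are therefore uncertain in size. For AK040902 and Arg2 the same holds for ATRA cells, with 1 such array. It was at least 2 at both times for 17 members. It was larger at 24 h by at least 1 for 10 members and larger at 12 h by at least 1 for 5. The IL-13 with ATRA minus IL-13 difference ran from -0.43 to 5.47 with a median of 0.32. That difference was above 0 at both times for 32 members, below 0 at both times for 13, within 0.5 of 0 at both times for 30, and at least 1 at both times for 11. The members therefore hold both genes that differed by less than 0.5 between combined and single treatment and genes that were several-fold higher with both agents.

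**Figure D1:**
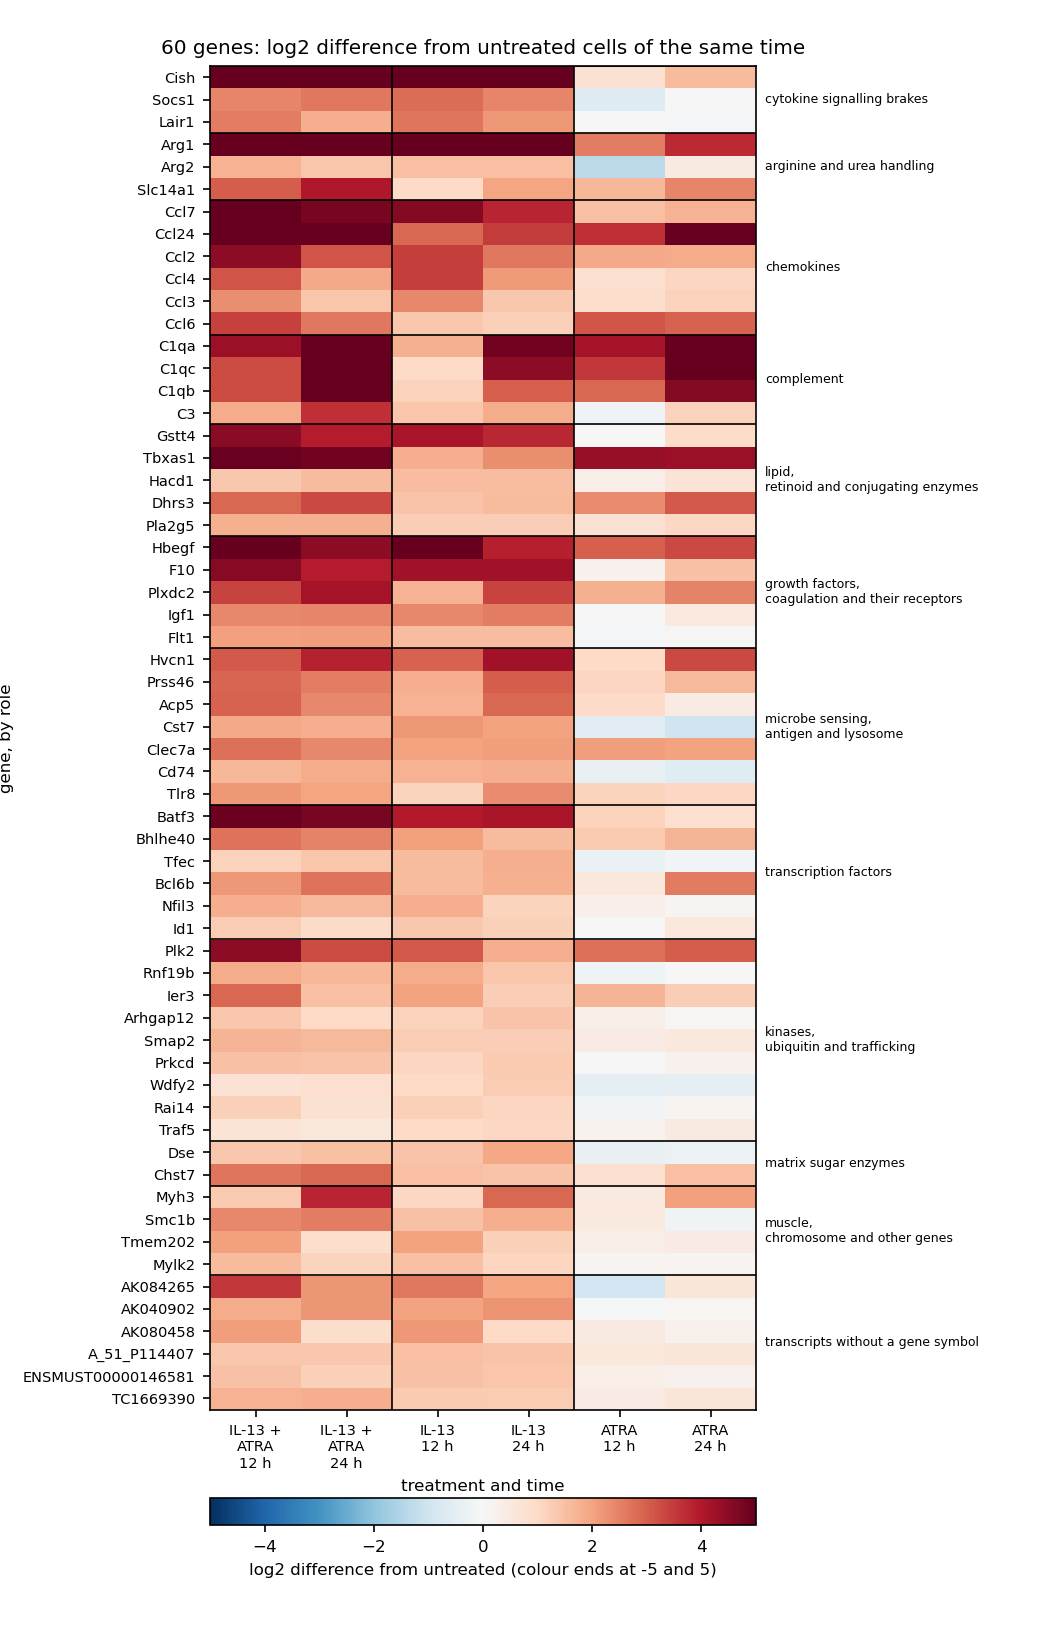
Log2 difference from untreated cells of the same time for the 60 members, in rows grouped by role, on the arrays of cells given IL-13 with ATRA, IL-13 and ATRA at 12 h and 24 h (columns). Red is higher and blue lower than untreated, with the colour ending at -5 and 5; the IL-13 columns are red by the rule, while the ATRA columns are near white for genes such as Lair1, Flt1 and Rnf19b and red for C1qa, Ccl24, Tbxas1 and Dhrs3.

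Members close to the limits differed little from genes just outside them. At the IL-13 limit of 1, the lower of the differences at both times was 1.007 for Traf5, 1.009 for Slc14a1 and 1.013 for C1qc, just inside, and 0.999 for Sdc4, 0.994 for Hemk1 and 0.988 for Rmi2, just outside. At the ATRA limit of -0.5, the lower difference was -0.45 for Wdfy2 and Tfec and -0.48 for Acp5, just inside, against -0.51 for Anpep, -0.52 for Bcar3 and -0.55 for Ccl9, just outside. Membership of such genes rests on small differences.

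The ATRA-alone arrays were not used to choose the members, but the other arm of each comparison with them was. ATRA against untreated cells shares the untreated arrays with the rule, which favours low values there, and IL-13 with ATRA against ATRA shares the combined-treatment arrays, on which the rule favours high values. Both shares push the members towards a call of higher, so the percentages below are partly set by the choice of members and are given beside the background as a description. The comparisons also share the ATRA arrays with each other, which pushes their values in opposite directions. Both were fitted with limma over all 15450 genes that passed the filter on dim probes. All 60 members passed that filter, as the rule guarantees.

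ATRA alone raised 12 of the 60 members (20%), where 0.906% of all tested genes were called higher, and it lowered 0, where 0.958% of all tested genes were called lower. At an unadjusted p under 0.05, 30 members were higher and 3 were lower in ATRA cells. Of all 15450 tested genes, 2337 reached that p in either direction. The median difference of ATRA from untreated cells was 0.63 over the members and -0.02 over all tested genes. In sign, 43 members were higher at both times and 7 were lower at both times. Signs were not counted over all tested genes in either comparison. The 132 other IL-13-raised genes met the same limit on the untreated arrays, and of these ATRA alone raised 0 and lowered 6 (4.55%), with a median difference of -0.35 and 35 at an unadjusted p under 0.05 in either direction. The number of members called depended on single arrays: it was 0 without the untreated array at 24 h and 6 without that at 12 h, 3 and 2 without the ATRA array at 12 h and at 24 h, 5 without either combined-treatment array and 8 without either IL-13 array. Each of the 12 calls was lost without at least 1 array. For Batf3, Bhlhe40, Pla2g5 and Plk2 the call was lost without any 1 of the 8 arrays. A treatment left with 1 array is assumed to vary like the others, and every such fit has fewer residual degrees of freedom, so fewer calls follow in part from the smaller design.

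IL-13 added to ATRA raised 21 of the 60 members (35%) above ATRA alone, where 0.265% of all tested genes were called higher, and lowered 0, where 0.0971% were called lower. At an unadjusted p under 0.05, 48 were higher and 0 lower, and 58 were higher in sign at both times. Of all 15450 tested genes, 1997 reached that p in either direction. The median difference was 1.37 over the members and 0.00 over all tested genes. For the 132 other IL-13-raised genes, which the combined-treatment arrays had set apart from the members, the same comparison gave 11 called higher (8.33%), 0 called lower and a median of 1.12. Here too the count of members fell when arrays were left out. It was 1 and 2 without the combined-treatment array at 12 h and at 24 h, 2 and 10 without the ATRA array at 12 h and at 24 h, 3 without either untreated array and 13 without either IL-13 array. Of the 21 calls, 20 were lost without at least 1 array. The calls of Ccl7, Lair1, Prkcd, Smap2, Smc1b, Wdfy2, TC1669390 and ENSMUST00000146581 were lost without any 1 of the 8 arrays. Batf3 was called in both comparisons, and 28 members were called in neither.

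**Figure D2:**
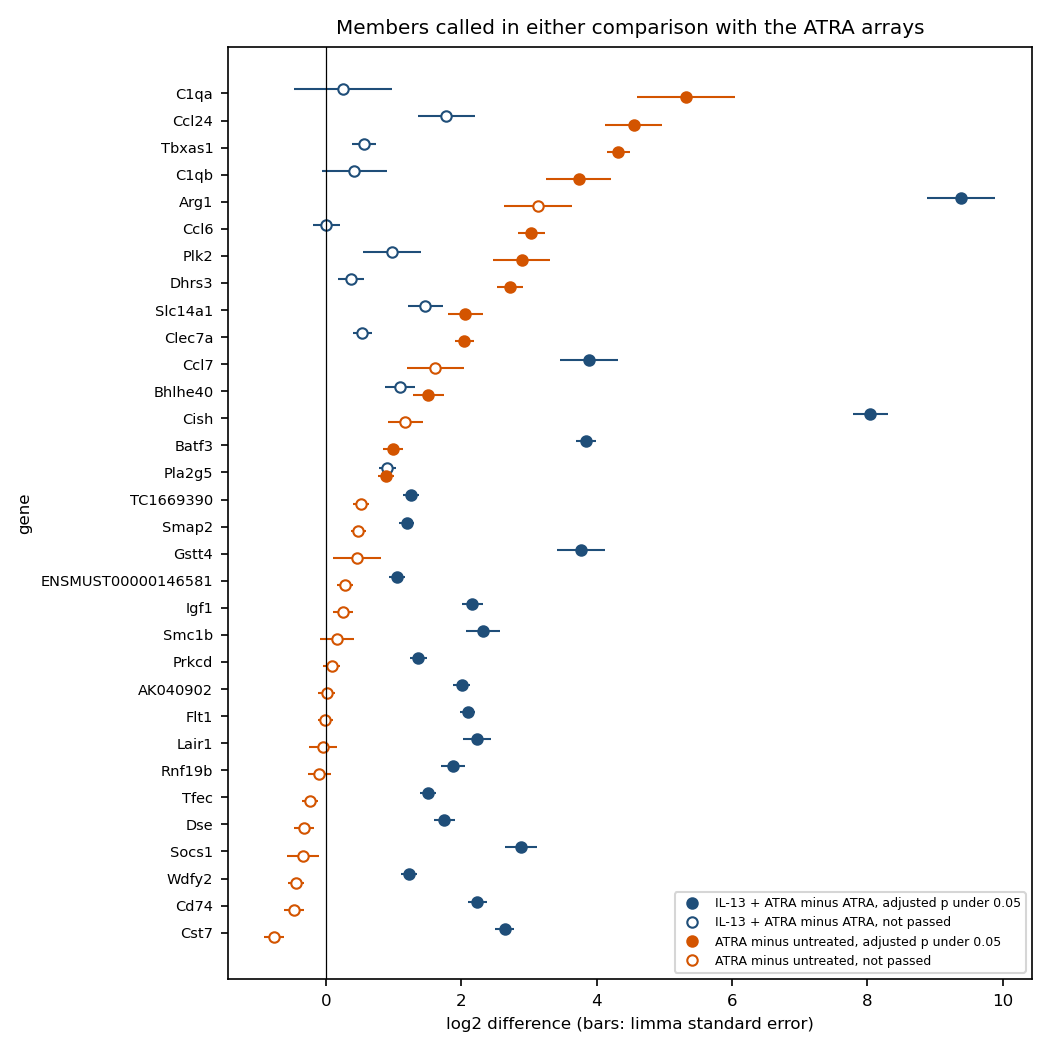
Log2 differences with limma standard errors for the members called in either comparison, for IL-13 with ATRA minus ATRA (blue) and ATRA minus untreated (orange). Filled points passed an adjusted p of 0.05 and open points did not. C1qa, Ccl24 and Tbxas1 lie far to the right in the orange comparison and below 2 in the blue one, and Cish and Arg1 lie beyond 8 in the blue one.

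The group labelled cytokine signalling brakes held 3 members, and they were high wherever IL-13 was present. The label describes Cish and Socs1, while Lair1 is an inhibitory receptor placed with them. Cish, a SOCS-family protein that is induced by STAT signalling and dampens cytokine receptors, stood furthest above its untreated signal in measured values. Its scaled log2 signals at 12 h and 24 h were 10.14 and 10.69 in cells given both agents, 10.22 and 10.68 in IL-13 cells, 2.15 and 2.59 in ATRA cells, and 1.40 and 0.998 in untreated cells. The groups with IL-13 did not overlap those without it, and on neither ATRA array nor untreated array was the probe well above background. Cish was at least 173-fold higher in IL-13 than in untreated cells, and it rose at least 156-fold in cells given both agents relative to ATRA alone (limma difference 8.04 ± 0.26, adjusted p = 0.0019). An at-least fold sets the mean of the brighter group against the lowest signal well above background on each array of the dimmer group, or the probe's own signal where that was higher. This was the 1 call of the 21 that held without any single array and under each alternative that could be fitted.

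Socs1, a direct inhibitor of JAK kinases, had signals of 9.42 and 9.25 in cells given both agents, 9.77 and 9.06 in IL-13 cells, 6.32 and 6.58 in ATRA cells, and 6.99 and 6.61 in untreated cells. It rose by 2.88 ± 0.24 over ATRA alone (adjusted p = 0.0259). Lair1, an inhibitory receptor for collagen, had 10.29 and 9.999 with both agents, 10.38 and 10.36 with IL-13, 7.74 and 8.08 with ATRA, and 7.72 and 8.19 in untreated cells. It too rose over ATRA alone, by 2.23 ± 0.21 (adjusted p = 0.0331). For both genes the IL-13 groups lay above the others without overlap, and ATRA minus untreated was -0.35 (Socs1) and -0.04 (Lair1), neither of which passed the test. Of the other probes for Lair1, 1 did not meet the ATRA limit.

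Arginine and urea handling was represented by Arg1, Arg2 and Slc14a1. Arg1, the cytosolic arginase that splits arginine into ornithine and urea and is the textbook marker of alternative activation, was the member with the largest further increase when ATRA was added. Its signals at 12 h and 24 h were 13.57 and 13.84 in cells given both agents, 7.48 and 8.99 in IL-13 cells, 4.12 and 4.51 in ATRA cells, and 1.57 and 0.78 in untreated cells. The 4 treatments did not overlap. Arg1 was at least 37.1-fold higher in IL-13 cells than in untreated cells, where its probe was not well above background. The combined treatment was 6.08 higher than IL-13 alone at 12 h and 4.85 higher at 24 h, an average of 44.2-fold. Relative to ATRA alone it rose by 9.39 ± 0.50 (adjusted p = 0.0097), a call that was lost without the ATRA array at 12 h (adjusted p = 0.0621) or either combined-treatment array (adjusted p = 0.0832 without 12 h and 0.0787 without 24 h). ATRA alone was at least 2.45-fold above untreated cells, with an adjusted p of 0.0557.

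Arg2, the mitochondrial arginase, had much lower-lying values near background: 4.34 and 4.51 with both agents, 4.12 and 4.61 with IL-13, 1.26 and 3.55 with ATRA, and 2.62 and 3.12 in untreated cells. On 1 of 2 arrays its probe was well above background in ATRA cells, and likewise in untreated cells. Slc14a1, a urea transporter, had 6.79 and 7.64 with both agents, 4.75 and 5.61 with IL-13, 5.41 and 6.10 with ATRA, and 3.74 and 3.65 in untreated cells. ATRA alone raised it by 2.06 ± 0.26 (adjusted p = 0.0345).

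**Figure D3:**
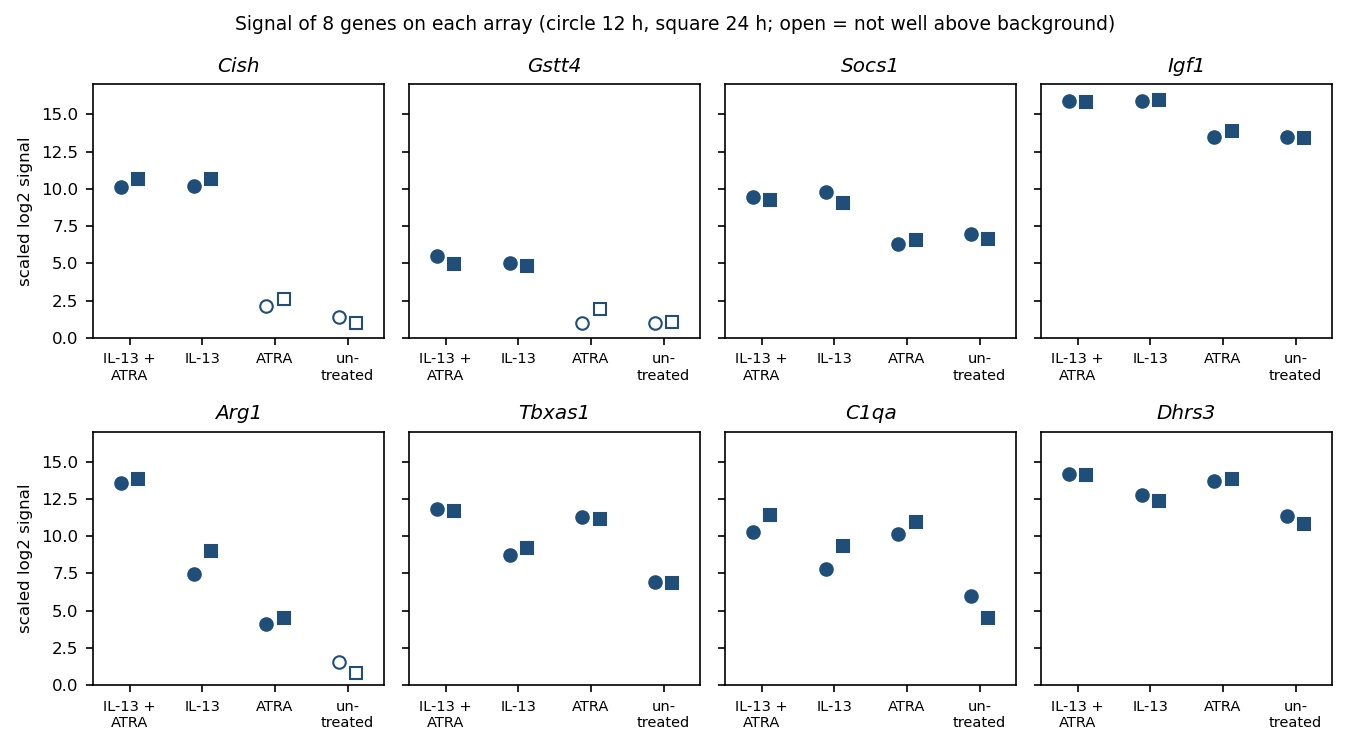
Scaled log2 signal of 8 members on each array, with treatments from left to right as IL-13 with ATRA, IL-13, ATRA and untreated, circles for 12 h, squares for 24 h, and open symbols where the probe was not well above background. Cish, Gstt4, Socs1 and Igf1 are high in both IL-13 treatments, Tbxas1, C1qa and Dhrs3 are higher with ATRA alone than with IL-13 alone, and Arg1 is highest with both, at 13.57 and 13.84.

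The enzymes of lipid, retinoid and conjugation chemistry included Tbxas1 and Gstt4. Tbxas1, thromboxane A synthase, which turns prostaglandin H into thromboxane, had signals of 11.84 and 11.69 in cells given both agents, 8.74 and 9.17 in IL-13 cells, 11.26 and 11.15 in ATRA cells, and 6.92 and 6.85 in untreated cells. ATRA cells lay above IL-13 cells at both times, and the 4 treatments did not overlap. ATRA alone raised Tbxas1 by 4.32 ± 0.17 (adjusted p = 0.0041), which is 20.0-fold, with differences of 4.34 at 12 h and 4.30 at 24 h. IL-13 alone was 1.83 and 2.31 above untreated cells. Adding IL-13 to ATRA gave a difference of 0.56 that did not pass the test (adjusted p = 0.292). Without the untreated array at 24 h the ATRA call was lost (adjusted p = 0.0679). Of the 2 other probes for Tbxas1, 1 was well above background on 0 arrays, and the other gave 4.17 for ATRA minus untreated and 1.98 for IL-13 minus untreated.

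Gstt4, a theta-class glutathione transferase that joins glutathione to reactive compounds, was measured above background where IL-13 was present. Its signals were 5.49 and 4.96 with both agents, 5.04 and 4.80 with IL-13, 0.97 and 1.94 with ATRA, and 0.98 and 1.03 in untreated cells. The probe was well above background on every array with IL-13 and on none of the ATRA or untreated arrays. Gstt4 was therefore at least 3.74-fold higher in IL-13 cells than in untreated cells. Relative to ATRA alone it rose at least 4.30-fold in cells given both agents (limma difference 3.77 ± 0.36, adjusted p = 0.0342), a call that held without the ATRA array at 24 h and was lost without any 1 of the 7 other arrays, with adjusted p between 0.0564 and 0.164. It was also lost with normexp background correction (adjusted p = 0.073), under which Gstt4 no longer met the rule. Its second probe gave 3.06 for IL-13 minus untreated and 3.89 for IL-13 with ATRA minus ATRA.

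Dhrs3, which reduces retinal to retinol and so lowers the supply of retinoic acid, had 14.17 and 14.10 with both agents, 12.75 and 12.37 with IL-13, 13.68 and 13.85 with ATRA, and 11.31 and 10.78 in untreated cells. ATRA alone raised it by 2.72 ± 0.19 (adjusted p = 0.0109), and the groups did not overlap. That call was lost without the untreated array at 24 h (adjusted p = 0.0894) or the ATRA array at 24 h (adjusted p = 0.0571). Pla2g5, a secreted phospholipase A2 that frees fatty acids from membrane lipids, was raised by ATRA by a smaller amount, 0.89 ± 0.12 (adjusted p = 0.0409). Hacd1, named Ptpla on the array and known for a dehydration step of fatty acid elongation, was 1.55 above untreated cells with IL-13. With ATRA alone Hacd1 was 0.52 above untreated cells and did not pass the test (adjusted p = 0.150).

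The Tbxas1 and Cish patterns can be set beside the DNA at their gene starts. RefSeq promoter windows of 300 bases (250 before the gene start and 50 after it, build GRCm38.p6) were found for 35 of the 60 members. The palindrome TTCNNNNGAA, the spacing known for STAT6, was in the windows of 7 of these 35 genes (20%): Acp5, Clec7a, Dhrs3, Lair1, Tbxas1, Tfec and Tlr8. It was in the windows of 8.01% of 27025 mouse genes and of 6.68% of the 10182 tested genes with a window. The shorter spacing TTCNNNGAA, known for other STAT proteins, was in 3 of 35 (8.57%: Batf3, Cish and Tlr8) against 9.55% of all genes. Both palindromes read the same on either strand, and the Tlr8 windows held both. Direct repeats of the retinoic acid receptor core motif with gaps of 1, 2 or 5 bases, searched on both strands, were in 0 of the 35, against 0.263%, 0.311% and 0.115% of all genes. A match is only a run of letters, and its absence concerns only these windows.

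The windows below are shown because they pair members of both kinds that hold a palindrome: Cish, Lair1 and Tfec, which were raised over ATRA alone in cells given both agents, and Tbxas1, Clec7a and Dhrs3, which ATRA alone raised. Each reads 5′ to 3′ on the strand of its gene, with the palindromes in capitals. Cish lies at chr9:107296409-107296708 (plus strand), with palindromes beginning at the gene start and 11 bases after it. Lair1 is at chr7:4063155-4063454 (minus), with the palindrome beginning 81 bases before the start, and Tfec at chr6:16898392-16898691 (minus), 200 bases before. Tbxas1 is at chr6:38918736-38919035 (plus), 121 bases before, Clec7a at chr6:129472730-129473029 (minus), 131 bases before, and Dhrs3 at chr4:144892827-144893126 (plus), 119 bases before.
Cish: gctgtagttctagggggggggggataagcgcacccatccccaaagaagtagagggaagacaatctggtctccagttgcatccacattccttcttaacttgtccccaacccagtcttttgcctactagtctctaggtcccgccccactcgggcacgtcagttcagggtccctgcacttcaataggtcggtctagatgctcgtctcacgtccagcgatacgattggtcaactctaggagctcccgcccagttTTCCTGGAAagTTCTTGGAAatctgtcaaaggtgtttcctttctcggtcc
Lair1: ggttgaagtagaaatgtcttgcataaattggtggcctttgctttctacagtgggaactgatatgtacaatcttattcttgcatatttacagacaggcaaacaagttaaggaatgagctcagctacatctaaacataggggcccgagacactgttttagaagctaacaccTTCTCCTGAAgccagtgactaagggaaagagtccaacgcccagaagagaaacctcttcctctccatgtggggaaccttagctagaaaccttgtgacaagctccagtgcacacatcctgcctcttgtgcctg
Tfec: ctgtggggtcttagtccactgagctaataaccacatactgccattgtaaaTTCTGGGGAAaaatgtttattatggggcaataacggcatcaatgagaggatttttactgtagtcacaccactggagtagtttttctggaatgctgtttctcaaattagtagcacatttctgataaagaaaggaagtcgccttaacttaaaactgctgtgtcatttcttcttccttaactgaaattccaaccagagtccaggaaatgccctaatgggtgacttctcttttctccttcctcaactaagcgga
Tbxas1: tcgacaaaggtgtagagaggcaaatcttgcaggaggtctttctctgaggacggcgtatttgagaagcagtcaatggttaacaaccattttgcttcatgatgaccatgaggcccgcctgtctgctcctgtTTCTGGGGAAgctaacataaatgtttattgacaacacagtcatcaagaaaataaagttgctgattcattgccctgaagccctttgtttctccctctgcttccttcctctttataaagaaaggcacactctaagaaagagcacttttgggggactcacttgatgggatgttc
Clec7a: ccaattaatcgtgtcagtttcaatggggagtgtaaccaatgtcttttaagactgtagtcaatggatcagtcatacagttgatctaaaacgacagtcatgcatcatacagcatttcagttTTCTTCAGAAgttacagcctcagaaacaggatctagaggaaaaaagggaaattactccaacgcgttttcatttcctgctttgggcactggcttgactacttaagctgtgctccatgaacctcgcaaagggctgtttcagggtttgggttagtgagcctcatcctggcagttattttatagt
Dhrs3: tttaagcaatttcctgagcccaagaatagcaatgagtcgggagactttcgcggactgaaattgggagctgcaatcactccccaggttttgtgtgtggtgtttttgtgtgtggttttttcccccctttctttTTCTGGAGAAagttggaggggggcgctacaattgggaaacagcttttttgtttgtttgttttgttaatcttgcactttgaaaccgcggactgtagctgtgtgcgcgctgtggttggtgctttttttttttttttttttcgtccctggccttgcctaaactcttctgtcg

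Chemokines, the small secreted proteins that guide leukocytes, made up 6 members, and 5 of their genes lie on chromosome 11. ATRA alone raised 2 of the 6, Ccl24 and Ccl6, and IL-13 added to ATRA raised 1, Ccl7. Ccl24, known as eotaxin-2, which attracts eosinophils through CCR3, had 11.36 and 11.22 with both agents, 8.02 and 8.25 with IL-13, 8.83 and 10.19 with ATRA, and 5.16 and 4.77 in untreated cells. ATRA raised it by 4.54 ± 0.42 (adjusted p = 0.0207), and cells given both agents lay above all others. Without an untreated array that call was lost (adjusted p = 0.0717 without 12 h and 0.163 without 24 h). Ccl6, a chemokine of mice that attracts macrophages, had 10.62 and 10.31 with both agents, 8.57 and 8.84 with IL-13, 10.33 and 10.59 with ATRA, and 7.21 and 7.66 in untreated cells. Signals with both agents overlapped those with ATRA alone. ATRA raised Ccl6 by 3.03 ± 0.20 (adjusted p = 0.0095), and IL-13 added to ATRA differed from ATRA by 0.00 ± 0.20.

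Ccl7 and Ccl2 attract monocytes through CCR2. Ccl7 had 9.28 and 7.97 with both agents, 7.63 and 7.03 with IL-13, 4.54 and 4.95 with ATRA, and 3.04 and 3.22 in untreated cells. It rose by 3.88 ± 0.42 over ATRA alone (adjusted p = 0.0481), and its probe was well above background on 1 of 2 untreated arrays. Ccl2 had 14.30 and 13.52 with both agents, 13.31 and 13.03 with IL-13, 11.73 and 12.25 with ATRA, and 9.83 and 10.39 in untreated cells. The Ccl2 treatments did not overlap, yet ATRA minus untreated, 1.88 ± 0.36, missed the threshold (adjusted p = 0.0775). Ccl3 and Ccl4, inflammatory chemokines that attract monocytes and T cells, differed by at most 0.28 between both agents and IL-13 alone. Ccl4 had 14.68 and 13.98 with both agents, 14.97 and 14.22 with IL-13, 12.34 and 13.17 with ATRA, and 11.53 and 12.10 in untreated cells. Ccl3 had 14.70 and 14.21, 14.81 and 14.17, 13.27 and 13.99, and 12.39 and 12.82 in the same order. Neither passed a test.

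For the chemokines, the IL-13 difference from untreated cells was smaller at 24 h than at 12 h for Ccl2 (2.64 and 3.48), Ccl3 (1.35 and 2.42), Ccl4 (2.12 and 3.44), Ccl7 (3.80 and 4.58) and Ccl6 (1.19 and 1.36). It was larger at 24 h for Ccl24 (3.48 and 2.86). Of 20 chemokines in a list, 13 were tested, the 6 members included. ATRA raised 4 of the 13 and lowered 0, against 0.906% raised and 0.958% lowered over all tested genes. The raised ones that were not members were Ccl12, by 2.62, and Cxcl14, by 2.56.

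Complement genes were 4 members: the genes of the A, B and C chains of C1q, which lie together on chromosome 4, and C3. C1q is the recognition molecule that starts the classical complement pathway, and macrophages are a main source of it. C1qa had 10.25 and 11.38 with both agents, 7.79 and 9.34 with IL-13, 10.16 and 10.97 with ATRA, and 5.99 and 4.50 in untreated cells. C1qb had 9.97 and 11.25 with both agents, 7.87 and 9.21 with IL-13, 9.58 and 10.80 with ATRA, and 6.71 and 6.20 in untreated cells. C1qc had 10.99 and 12.55 with both agents, 8.72 and 10.49 with IL-13, 11.26 and 12.47 with ATRA, and 7.71 and 6.03 in untreated cells. In all 3 chains the arrays with ATRA, with or without IL-13, lay above the IL-13 arrays of the same time.

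ATRA alone raised C1qa by 5.32 ± 0.72 (adjusted p = 0.0404) and C1qb by 3.73 ± 0.48 (adjusted p = 0.0361). For C1qc the difference was 5.00 ± 0.86, with an adjusted p of 0.0623. The large errors follow the times: ATRA minus untreated was 6.48 at 24 h and 4.17 at 12 h for C1qa, 4.60 and 2.87 for C1qb, and 6.45 and 3.55 for C1qc. IL-13 minus untreated was also larger at 24 h than at 12 h, 4.84 and 1.79 for C1qa, 3.004 and 1.16 for C1qb, and 4.46 and 1.01 for C1qc. Part of these larger differences is a lower untreated signal at 24 h. It was 4.50 at 24 h and 5.99 at 12 h for C1qa, 6.20 and 6.71 for C1qb, and 6.03 and 7.71 for C1qc. IL-13 added to ATRA made little difference, at 0.25 (C1qa), 0.42 (C1qb) and -0.10 (C1qc), none of which passed the test. The C1qa and C1qb calls were lost without either ATRA array, either IL-13 array, either combined-treatment array or the untreated array at 24 h, with adjusted p between 0.0537 and 0.225.

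C3, the central protein on which all complement pathways converge, behaved otherwise. It had 10.81 and 12.36 with both agents, 10.31 and 10.56 with IL-13, 8.77 and 9.89 with ATRA, and 8.94 and 8.72 in untreated cells. The ATRA and untreated groups overlapped, and neither test passed (adjusted p = 0.685 for ATRA against untreated and 0.149 for both agents against ATRA).

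Growth factors, coagulation and their receptors held 5 members. Igf1, a growth factor that macrophages supply during tissue repair, had 15.89 and 15.83 with both agents, 15.89 and 15.98 with IL-13, 13.51 and 13.89 with ATRA, and 13.48 and 13.41 in untreated cells. The IL-13 groups lay above the others, and Igf1 rose by 2.16 ± 0.15 over ATRA alone (adjusted p = 0.0201). Flt1, a receptor for vascular endothelial growth factor, had 11.30 and 11.10 with both agents, 10.80 and 10.56 with IL-13, 9.14 and 9.08 with ATRA, and 9.23 and 9.01 in untreated cells. It rose by 2.09 ± 0.11 over ATRA alone (adjusted p = 0.0097), while ATRA alone differed from untreated by -0.01.

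F10 is clotting factor X, whose active form cuts prothrombin into thrombin. It had 9.47 and 8.96 with both agents, 9.12 and 9.22 with IL-13, 5.14 and 6.495 with ATRA, and 4.93 and 5.02 in untreated cells. The groups with IL-13 stood clear of those without, but the difference of 3.40 ± 0.43 between both agents and ATRA missed the threshold (adjusted p = 0.0683). Of 7 tested genes of a coagulation list, none was called in either comparison. Over all tested genes, ATRA raised 0.906% and lowered 0.958%, and both agents against ATRA raised 0.265% and lowered 0.0971%. With shares that low, 0 calls among 7 genes say little about the list. Hbegf, a ligand of the epidermal growth factor receptor, had 8.67 and 7.95 with both agents, 7.62 and 7.39 with IL-13, 5.53 and 6.802 with ATRA, and 2.55 and 3.49 in untreated cells. ATRA minus untreated was 3.14 ± 0.51 and also missed the threshold (adjusted p = 0.0561). Plxdc2, a membrane protein with a plexin domain, had 8.78 and 8.61, 7.16 and 7.84, 7.198 and 6.93, and 5.42 and 4.45 in the same order, with an adjusted p of 0.0639 for ATRA against untreated.

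Microbe sensing, antigen handling and lysosomal genes made up 7 members. Clec7a, known as Dectin-1, which recognises fungal beta-glucan, had 15.00 and 14.61 with both agents, 14.27 and 14.28 with IL-13, 14.33 and 14.21 with ATRA, and 12.26 and 12.20 in untreated cells. The levels with IL-13 alone and ATRA alone overlapped, and ATRA raised it by 2.04 ± 0.14 (adjusted p = 0.0095). That call was lost without any 1 of the untreated or ATRA arrays, with adjusted p between 0.0627 and 0.0894. Cd74, the invariant chain that escorts MHC class II, had 14.01 and 14.27 with both agents, 14.09 and 14.22 with IL-13, 12.00 and 11.81 with ATRA, and 12.37 and 12.39 in untreated cells. Cst7, or cystatin F, an inhibitor of lysosomal cysteine proteases, had 10.11 and 9.78, 10.39 and 9.98, 7.66 and 6.96, and 8.20 and 7.95 in the same order.

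Both Cd74 and Cst7 rose over ATRA alone in cells given both agents, Cd74 by 2.23 ± 0.14 (adjusted p = 0.0154) and Cst7 by 2.64 ± 0.14 (adjusted p = 0.0097). Both also had lower values with ATRA alone than in untreated cells at both times, by -0.48 for Cd74 (adjusted p = 0.203) and -0.77 for Cst7 (adjusted p = 0.0745), and neither passed. With Wdfy2, they were the 3 members with an unadjusted p under 0.05 and a lower value in ATRA cells. Cd74 does not stand for the MHC class II genes on the array. H2-Ab1 and H2-DMa met the IL-13 limit but fell below the ATRA limit. Their IL-13 with ATRA minus IL-13 differences averaged -1.59 and -0.85, against -0.01 for Cd74. H2-DMb1, which missed the IL-13 limit, had -1.96.

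The other 4 of this role passed no test. Hvcn1, the voltage-gated proton channel that supports the oxidative burst, was at least 7.68-fold higher in IL-13 than in untreated cells, where its probe was not well above background. Tlr8, a sensor of RNA in endosomes, was at least 2.61-fold higher in the same comparison. Acp5, the tartrate-resistant acid phosphatase known from osteoclasts, averaged 2.32 above untreated cells with IL-13, and Prss46, a gene of the serine protease family, averaged 2.41. Adding ATRA to IL-13 gave Acp5 1.19 at 12 h and -0.48 at 24 h, Tlr8 1.03 and -0.40, and Prss46 1.07 and -0.43, so the differences of these 3 genes had opposite signs at the 2 times.

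Transcription factors numbered 6. Batf3, an AP-1 family factor known for the development of cross-presenting dendritic cells, had 8.94 and 9.18 with both agents, 8.01 and 8.54 with IL-13, 5.20 and 5.25 with ATRA, and 4.03 and 4.45 in untreated cells. The 4 treatments did not overlap. ATRA alone raised it by 0.99 ± 0.15 (adjusted p = 0.0485), and IL-13 added to ATRA raised it by 3.84 ± 0.15 (adjusted p = 0.0027). The first of these calls was lost without any 1 of the 8 arrays, with adjusted p between 0.0557 and 0.233, and the second without the combined-treatment array at 12 h (adjusted p = 0.0694). Bhlhe40, a basic helix-loop-helix repressor, had 10.32 and 10.19, 9.68 and 9.29, 8.92 and 9.42, and 7.61 and 7.70 in the same order, and ATRA raised it by 1.51 ± 0.22 (adjusted p = 0.0462). Tfec, of the MiT family and known in macrophages, had 8.84 and 9.19, 9.25 and 9.64, 7.35 and 7.66, and 7.69 and 7.80, and rose by 1.51 ± 0.12 over ATRA alone (adjusted p = 0.0229).

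Nfil3, a basic leucine zipper factor, Bcl6b, a zinc finger repressor related to Bcl6, and Id1, which blocks basic helix-loop-helix factors, passed neither test. Over all 6 factors, the difference between both agents and IL-13 ran from -0.43 for Tfec to 0.79 for Batf3. IL-13 minus untreated averaged 1.47 for Nfil3, 1.68 for Bcl6b and 1.28 for Id1.

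The 9 members for kinases, ubiquitin and trafficking lay closer to the limit on IL-13, with a median difference of 1.26 from untreated cells. Plk2, a polo-like kinase of the stress response, had the largest difference, 2.44, followed by Rnf19b (1.62) and Ier3 (1.61). Plk2 had 9.15 and 8.95 with both agents and 7.74 and 7.53 with IL-13. It had 7.44 and 8.72 with ATRA, and 4.69 and 5.70 in untreated cells. ATRA raised it by 2.89 ± 0.43 (adjusted p = 0.0462), a call lost without any 1 of the 8 arrays. Rnf19b, an E3 ubiquitin ligase, rose over ATRA alone by 1.87 ± 0.17 (adjusted p = 0.0331), as did Prkcd, protein kinase C delta, by 1.36 ± 0.13, Wdfy2, an endosomal FYVE domain protein, by 1.22 ± 0.12, and Smap2, a regulator of Arf GTPases, by 1.19 ± 0.11. Ier3, an immediate early stress gene, Traf5, an adaptor of TNF receptors, Arhgap12, a GTPase-activating protein, and Rai14, an actin-binding protein first named as induced by retinoic acid, passed neither test. For Rai14 the value was -0.00 with ATRA alone and 1.13 with IL-13 alone, relative to untreated cells, and its 4 other probes did not reach the IL-13 limit.

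Of the smaller groups, Dse, which converts chondroitin into dermatan sulfate, rose over ATRA alone by 1.75 ± 0.15 (adjusted p = 0.0322). Chst7, a sulfotransferase for the same kind of sugar chain, had 11.54 and 11.19 with both agents, 10.39 and 9.74 with IL-13, 9.67 and 9.82 with ATRA, and 8.87 and 8.32 in untreated cells, and missed the threshold in both comparisons (adjusted p = 0.0713 and 0.0733). Smc1b, a cohesin subunit of meiosis, had 6.98 and 7.41, 6.05 and 6.66, 5.07 and 4.67, and 4.58 and 4.85 in the same order and rose over ATRA alone by 2.32 ± 0.25 (adjusted p = 0.0481). Myh3, an embryonic myosin, Mylk2, the skeletal muscle myosin light chain kinase, and Tmem202, a membrane protein, passed neither test. Their IL-13 differences averaged 1.94 for Myh3, 1.27 for Mylk2 and 1.60 for Tmem202.

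The 6 probes without a gene symbol are given no role. AK040902 rose over ATRA alone by 2.01 ± 0.13 (adjusted p = 0.0154), TC1669390 by 1.25 ± 0.12 (adjusted p = 0.0331) and ENSMUST00000146581 by 1.05 ± 0.11 (adjusted p = 0.0481). The AK040902 probe lies at chr4:128749729-128749788 and the Rnf19b probe at chr4:128763010-128763069 (mm9, per the file headers), so these 2 probes lie close together on the chromosome. AK084265 was at least 2.31-fold higher in IL-13 cells than in untreated cells. It was at least 3.21-fold higher in cells given both agents than in ATRA cells and did not pass the test (adjusted p = 0.184). AK080458 and the probe A_51_P114407 passed neither test, with IL-13 differences of 1.59 and 1.45.

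The response to ATRA without IL-13 was set beside the response to ATRA on top of IL-13, which rest on different arrays. Across the 60 members the Pearson correlation of ATRA minus untreated with IL-13 with ATRA minus IL-13 was 0.78 and the Spearman correlation 0.73. Within each time the Pearson value was 0.76 at 12 h and 0.73 at 24 h. Across all 192 IL-13-raised genes it was 0.67, with 0.55 at 12 h and 0.70 at 24 h. These are descriptions over genes, which are not independent replicates. Every point rests on the same 8 arrays, and the rule removes low values on 1 axis for the 60. All 192 genes were chosen by their IL-13 minus untreated difference, and the untreated and IL-13 arrays are those subtracted on the axes. That choice can itself tie the axes together. The correlation was not computed over all tested genes, so how much of it the choice of genes set was not tested. Genes such as Tbxas1, Ccl24, Ccl6, Dhrs3 and the C1q chains lie high on both axes, and Cish, Igf1 and Lair1 lie near 0 on the axis of ATRA on top of IL-13.

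**Figure D4:**
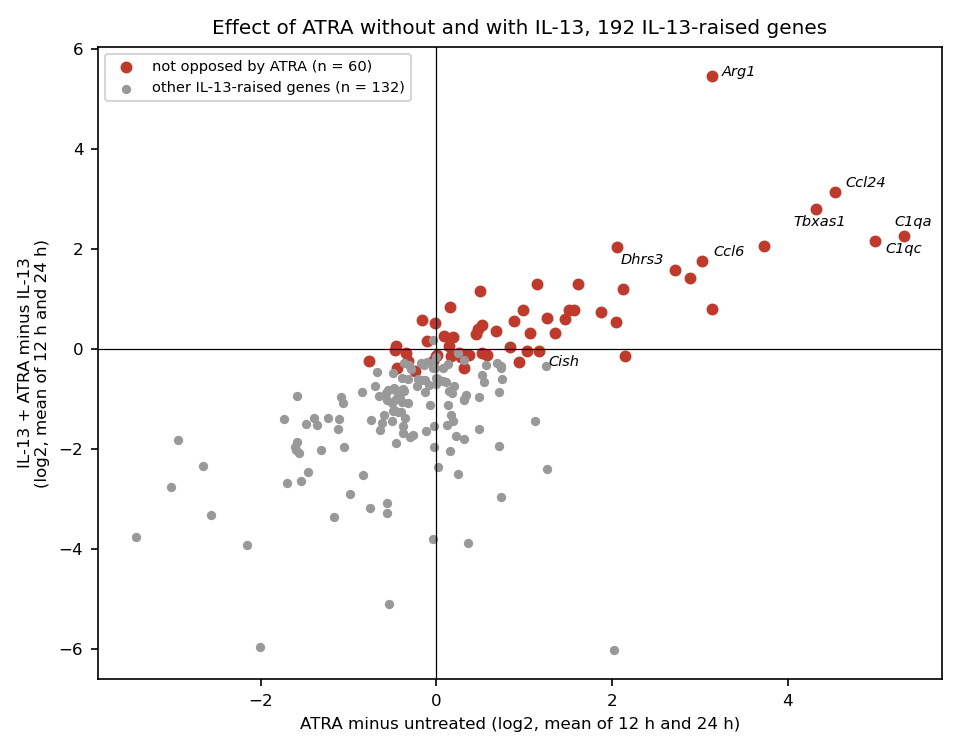
ATRA minus untreated (horizontal) against IL-13 with ATRA minus IL-13 (vertical), both as log2 means of 12 h and 24 h, for the 60 members in red and the 132 other IL-13-raised genes in grey. The members lie above -0.5 vertically by the rule; Arg1, Ccl24, Tbxas1 and the C1q chains stand at the upper right, and most grey points lie at or left of 0 horizontally.

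The members could be placed among the other genes of their pathways. Of 34 markers of alternative activation on the array, 23 passed the filter on dim probes and were tested, and 17 met the IL-13 limit. A gene could pass that filter through the IL-13 arrays alone. Of the 17, 5 were members (Arg1, Clec7a, Ccl24, Batf3 and Flt1), where 60 of all 192 IL-13-raised genes were. Retnla, Ccl22, Alox15, Cd209a, Cd209e and F13a1 were well above background on 0 arrays, and Ccl17 on 1. Over the 23, ATRA alone raised 4 and lowered 3, and both agents against ATRA raised 6 and lowered 0. Over all tested genes, ATRA raised 0.906% and lowered 0.958%, and both agents against ATRA raised 0.265% and lowered 0.0971%. These shares apply to every list here and below. The list counts include members, which the rule chose, so they are descriptions and no test of a pathway. Of 19 tested genes on the path of the IL-13 receptor through JAK kinases and STAT proteins, 4 met the IL-13 limit. Cish and Socs1 were members and were the 2 of the 19 raised over ATRA alone. Socs2 and Il13ra2 met the IL-13 limit but not the ATRA limit. Of 17 tested enzymes of thromboxane, prostaglandin and leukotriene synthesis, ATRA raised Tbxas1 and Ptgs1, by 4.32 and 4.33, and Tbxas1 alone met the IL-13 limit. Of 19 tested glutathione enzymes, Gstt4 was the 1 raised over ATRA alone, and Gsr, glutathione reductase, was the 1 raised by ATRA, by 1.11. The related Gstt1 also met the IL-13 limit, with 2.88 at 12 h and 2.83 at 24 h. It missed the ATRA limit at 24 h only (0.13 at 12 h and -0.68 at 24 h). Both agents minus ATRA averaged 1.89 for Gstt1 and did not pass the test (adjusted p = 0.245). Its probe was well above background on 3 arrays.

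Retinoid response genes were mixed on the ATRA arrays. Of 20 on the array, 13 were tested, and their median ATRA minus untreated difference was 0.06. ATRA raised 4 of the 13 and lowered 0. The 4 were Tgm2 by 4.50, Dhrs3 by 2.72, Rarb by 1.81 and Nrip1 by 1.76. Dhrs3 was the member among them. Of 15 tested dendritic cell and antigen presentation genes, 6 met the IL-13 limit and 2 were members (Batf3 and Cd74). ATRA raised 2 of the 15, and both agents against ATRA raised 4. Of 14 tested growth factor and matrix genes, ATRA raised 2 and both agents against ATRA raised 4, Igf1 among them. None of 23 tested interferon-stimulated genes was a member, where 60 of all 15450 tested genes were, so that count says little. ATRA lowered 7 of the 23, against 0.958% of all tested genes.

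Other probes gave a measure of how firmly single members stand. For 22 members the array held 34 further probes, of which 27 (for 18 members) were well above background on both IL-13 arrays. Of these 27, 18 showed an IL-13 difference of at least 1 at both times and 16 met the whole rule. The probes of Rai14 and Arhgap12 disagreed: the 4 others for Rai14 gave 0.31 to 0.99, and 2 of the 3 others for Arhgap12 gave 0.62 and 0.93. The second probes of Prkcd, Smap2 and Wdfy2 also fell short of the IL-13 limit, with 0.69, 0.90 and 0.92 at 12 h. For Tfec and Lair1 another probe did not meet the ATRA limit.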

How the data were processed

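Total RNA of RAW264.7 cells was labelled with Cy3 and hybridised to 8 Agilent arrays (design 014868), which the authors read with Feature Extraction 10.7.1.1, per the file headers. The deposited processed signal is a background-subtracted intensity with no scaling between arrays. Flags for well above background, saturation and outlying spots are other columns, 0 or 1, per the file headers. The authors also deposited a log2 table, whose columns share a minimum of 0.752 and a maximum of 18.2. Its method is not given in the sources used here, and it served as an alternative.

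Control spots were left out, which left 43379 spots of 41174 probes. Non-uniform and outlying spots were set to missing and repeat spots averaged. Log2 signals were scaled by each array's 75th percentile. Probes were named through RefSeq accession (27753), symbol (5537), synonym (459) or the deposited name (7425), and the probe with the highest mean stood for its gene. The 15450 genes kept were those whose probe was well above background at both times in at least 1 treatment. The model, in limma 3.58.1 (R 4.3.3), had terms for treatment and time over all 8 arrays and 3 residual degrees of freedom. Errors are limma standard errors and p-values are two-sided, Benjamini-Hochberg adjusted over all 15450 genes; a gene was called at an adjusted p under 0.05. The script was tested on simulated data. With 2 arrays per treatment, the precision is limited by their number.

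Replicate numbers follow time, so the time term is the replicate block. The members, gene lists, roles and tests were chosen with earlier results of these data known. Every member is named. The named genes with full values were, by rule, Gstt4, Tbxas1, the 12 members with the largest IL-13 difference, up to 10 called members per comparison and direction, the 5 with the largest further difference with ATRA, those at the limits of the rule, and up to 4 called genes per list; values of other members were added. Promoter windows came from RefSeq (GRCm38.p6) and were matched by symbol. Alternatives were quantile normalization, normexp background correction, the authors' values, other filters, other moderation, no time term, a random block for time, only the groups compared, and leaving out each array.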

Additional observations from a re-analysis of the deposited data

Results flagged for a closer look

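AK084265 and Arg2 had ATRA minus untreated differences of opposite sign at the 2 times. For AK084265 the difference was 0.61 at 24 h and -0.94 at 12 h, and its probe was well above background on no ATRA or untreated array. For Arg2 it was 0.43 at 24 h and -1.36 at 12 h, and 1 ATRA array and 1 untreated array had its probe well above background. The difference between the times was not tested, since each time has 1 array per treatment, and time and slide cannot be told apart.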

How the results depend on the processing

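Membership depended on the rule's settings: 73 genes met the rule with quantile normalization or the authors' values (without Prkcd and Wdfy2), 40 with normexp background correction, 64 if any probe could qualify, 60 with the deposited gene names, and 32 with an ATRA limit of 0. Under normexp 24 of the 60 dropped out, among them Gstt4, C1qb, C1qc, Ccl6, Hvcn1, Slc14a1 and Arg2, and with a limit of 0 28 did, among them Cish, Socs1, Igf1 and Lair1. Calls moved too. For ATRA against untreated, 1.86% of all tested genes were called, against 3.69% with normexp, 3.17% among genes well above background on all 8 arrays, 4.06% with trend and robust moderation, 0% with no filter on dim probes, where 27339 genes were tested, and 0.00647% to 1.11% without 1 array. Of the members, 12 were called higher, against 20 with trend and robust moderation, 0 with no filter and 0 to 8 without 1 array, and 0 lower, against 1 with trend and robust moderation and 1 under the all-array filter. For both agents against ATRA, 0.362% of all genes were called, against 0.693% with normexp, 0.643% under the all-array filter, 0.550% with time as a random block, 1.08% with trend and robust moderation, 0.0146% with no filter, 0.0129% with the compared groups alone and 0.0194% to 0.291% without 1 array. Of the members, 21 were called higher, against 2 with no filter, 2 with the compared groups alone and 1 to 13 without 1 array. The cause of these moves was not tested, beyond fewer arrays or more genes tested. Without the replicate block, which here is the time term, 13 and 22 members were called higher in the 2 comparisons. In the alternatives run, 0 called members changed sign.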
